A study of Mus musculus with 12 samples.

Results

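The mesothelial genes are 8 genes that mark the mesothelium, the thin cell sheet covering the surface of the lung, and they were taken by gene symbol: Wt1, Upk3b, Upk1b, Msln, Gpm6a, Lrrn4, Muc16 and Rspo1. All 8 were measured, each by 1 probe set, among 22180 genes on the array. Their levels come from mouse embryos at E14.5, whose lungs were taken whole, in 3 genotypes of 4 arrays each. The Yy1 mutants were Yy1flox/flox;Shh+/Cre, the Dicer mutants were Dicerflox/flox;Shh+/Cre, and the controls were Shh+/Cre. Every specimen therefore carried the heterozygous Cre allele at the Shh locus, which is active in the lung epithelium, and no group without Cre was analysed here. The labels do not state litters, sex or the number of embryos per specimen, so the p-values measure the spread between these 12 specimens, part of which may be technical.

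The lung mesothelium arises from mesoderm, not from the endoderm that forms the airway epithelium. During development it secretes growth factors such as Fgf9 to the mesenchyme beneath it, and some of its cells enter that mesenchyme. The same kind of sheet covers the heart as the epicardium and lines the body cavity, and several of the genes used here are also active in other tissues, Gpm6a in neurons and the uroplakins in the bladder lining. In a specimen of whole lung, fewer cells of a type and less RNA per cell cannot be told apart.

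Values are log2 levels as deposited, and differences are on the same log2 scale. A gene was called when its limma adjusted p, taken over all 22180 genes, was under 0.05. The deposited table holds no detection calls. It is therefore not known how far dim genes such as Msln and Muc16 stood above background. A level of one gene is not set against that of another. The array medians lay between 5.99 and 6.08. Dicer1 fell in Dicer mutants (difference -0.61, SE 0.0953, adjusted p = 0.00127), while Yy1 in Yy1 mutants differed by -0.19 (SE 0.0680, adjusted p = 0.125), so the Yy1 probe set did not separate its mutant by the test. Yy1 read 8.70 to 8.95 in Yy1 mutants, below the 8.98 to 9.14 of controls and the 8.96 to 9.08 of Dicer mutants.

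In Dicer mutant lungs 4 of the 8 mesothelial genes rose and none fell by the test, whereas in Yy1 mutant lungs 1 of 8 rose. The 4 were Upk3b, Gpm6a, Lrrn4 and Muc16, with increases of 1.34-fold to 1.55-fold, and the single call in Yy1 mutants was Lrrn4. Upk3b, Gpm6a and Muc16 were lower in Yy1 mutants than in Dicer mutants when the mutants were compared with each other. Without 3 arrays with raised Y-linked genes (Yy1 mutants 2 and 3 and Dicer mutant 4), Upk3b, Gpm6a and Muc16 were still called in Dicer mutants and Lrrn4 in neither mutant (adjusted p = 0.217 in Yy1 mutants and 0.0707 in Dicer mutants). Without the 3 arrays with the highest heart muscle level, described further on, Muc16 alone of the 8 was called in Dicer mutants and none in Yy1 mutants. Over all genes, 4.78% were called higher and 3.97% lower in Dicer mutants, 2.77% and 3.84% in Yy1 mutants, and 1.57% and 3.39% in Yy1 mutants against Dicer mutants. The 8 genes were chosen with earlier results of these data known, so their counts beside these shares are a description.

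Promoter sequences were matched by symbol for 5 of the 8 genes, from the RefSeq table of build GRCm38.p6, which gives 250 bases before and 50 after a start site. The promoters of the 4 genes that rose together in Dicer mutants are printed 5′ to 3′ as the table gives them. Upk3b lies at chr5:136038246-136038545 (plus strand), Gpm6a at chr8:54779184-54779483 (plus strand), Lrrn4 at chr2:132880813-132881112 (minus strand) and Muc16 at chr9:18674554-18674853 (minus strand). Capitals mark GGAATG or its reverse complement CATTCC, the core letters bound by Tead factors.
Upk3b: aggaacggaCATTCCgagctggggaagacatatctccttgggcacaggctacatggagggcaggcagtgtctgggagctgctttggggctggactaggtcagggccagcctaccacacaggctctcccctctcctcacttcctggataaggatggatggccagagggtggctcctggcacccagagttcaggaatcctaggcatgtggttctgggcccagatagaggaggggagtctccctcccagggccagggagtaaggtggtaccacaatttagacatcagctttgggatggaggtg
Gpm6a: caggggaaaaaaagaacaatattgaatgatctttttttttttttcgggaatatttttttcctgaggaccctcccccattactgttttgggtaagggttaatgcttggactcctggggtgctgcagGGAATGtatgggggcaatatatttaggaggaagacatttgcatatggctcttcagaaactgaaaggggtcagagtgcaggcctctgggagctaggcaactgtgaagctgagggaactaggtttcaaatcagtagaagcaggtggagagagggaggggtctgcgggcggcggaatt
Lrrn4: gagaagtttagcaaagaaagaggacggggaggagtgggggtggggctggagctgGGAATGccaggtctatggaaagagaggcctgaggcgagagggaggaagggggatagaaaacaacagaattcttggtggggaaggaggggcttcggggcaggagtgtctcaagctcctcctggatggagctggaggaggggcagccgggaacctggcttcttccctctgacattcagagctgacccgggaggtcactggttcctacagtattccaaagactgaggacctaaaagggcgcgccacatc
Muc16: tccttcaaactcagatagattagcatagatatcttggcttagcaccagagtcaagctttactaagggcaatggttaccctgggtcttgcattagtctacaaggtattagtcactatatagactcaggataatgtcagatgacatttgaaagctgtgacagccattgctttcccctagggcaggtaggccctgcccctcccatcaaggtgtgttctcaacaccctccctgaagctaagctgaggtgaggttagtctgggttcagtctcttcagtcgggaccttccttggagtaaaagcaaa

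The core letters were present in the promoters of Upk3b, Gpm6a and Lrrn4 and not in that of Muc16 or Rspo1. A second Gpm6a promoter, at chr8:54954478-54954777, did not hold them either, so 3 of 6 promoters of these genes had a match. Of all 32851 promoters in the table, 14.7% held the same letters on either strand. The Yy1 motif CCATNTT was present in 1 of the 6, the second Gpm6a promoter, against 16.1% of all promoters, and the Wt1 motif GCGTGGG in 0 of 6, against 5.04%. The motifs do not overlap each other in these promoters. They were picked after the sequences had been read, and a match describes letters in this window and not a bound site.

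Upk3b and Upk1b encode uroplakins, membrane proteins best known from the bladder lining, and Upk3b is widely used as a mesothelial marker. Upk3b read 9.08, 9.12, 9.21 and 9.22 in the 4 Yy1 mutants, 9.46, 9.68, 9.58 and 9.60 in the 4 Dicer mutants, and 9.28, 8.999, 9.21 and 9.15 in the 4 controls. Every Dicer mutant lay above every control and every Yy1 mutant, while Yy1 mutants and controls overlapped. The gene averaged 9.58 ± 0.0904 in Dicer mutants and 9.16 ± 0.120 in controls (SD, n = 4 each), a rise of 0.42 (SE 0.0746, adjusted p = 0.00307). Yy1 mutants, at 9.16 ± 0.0655, differed from controls by -0.0006 (95% interval -0.16 to 0.16, adjusted p = 0.999), and the sign of that value turned in 6 of 22 alternative analyses. They were lower than Dicer mutants by the test, with a difference of -0.42 (SE 0.0746, adjusted p = 0.00426).

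Upk1b, a tetraspanin, read 7.58, 7.59, 7.33 and 7.67 in Yy1 mutants, 7.78, 7.87, 7.71 and 7.92 in Dicer mutants, and 7.66, 7.74, 7.72 and 7.42 in controls. Dicer mutants and controls overlapped narrowly, and the 4 Yy1 mutants lay below the 4 Dicer mutants. No comparison of Upk1b passed the test. The difference was -0.09 in Yy1 mutants against controls (95% interval -0.29 to 0.11, adjusted p = 0.671) and 0.18 in Dicer mutants against controls (-0.01 to 0.38, adjusted p = 0.255). With 1 array left out, they ran from -0.16 to -0.02 and from 0.11 to 0.22. Yy1 mutants against Dicer mutants gave -0.28 (-0.47 to -0.08, adjusted p = 0.117).

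Gpm6a encodes a membrane glycoprotein and is known both from neurons and from mesothelium. Its level was 7.91, 8.13, 7.89 and 8.08 in Yy1 mutants, 8.35, 8.76, 8.68 and 8.65 in Dicer mutants, and 8.20, 7.78, 8.03 and 7.91 in controls. The Dicer mutants stood apart above both other genotypes, which overlapped. It rose by 0.63 in Dicer mutants (SE 0.107, adjusted p = 0.00225), to 8.61 ± 0.180 in Dicer mutants against 7.98 ± 0.180 in controls (SD, n = 4 each). In Yy1 mutants the difference from controls was 0.02 (95% interval -0.21 to 0.25, adjusted p = 0.948), with the sign turned in 6 of 22 alternatives, and Yy1 mutants were lower than Dicer mutants with a difference of -0.61 (adjusted p = 0.00406).

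Because Gpm6a is also a neuronal gene, markers of neurons and glia are given beside it. Of 7 measured, 0 were called in any of the 3 comparisons by limma, with 2 in Yy1 mutants against controls, 2 in Dicer mutants against controls and 2 between the mutants at an unadjusted p under 0.05. The share of all genes under that p was 19.2%, 22.3% and 17.9% in these comparisons. Their mean level ran from 6.22 to 6.46 in Yy1 mutants, 6.09 to 6.42 in Dicer mutants and 6.13 to 6.25 in controls, so Dicer mutants and controls overlapped. The part of neurons in the Gpm6a values was not tested. Gpm6b, the closest relative of Gpm6a, rose in both mutants, by 0.42 in Yy1 mutants (adjusted p = 0.00222) and by 0.49 in Dicer mutants (adjusted p = 0.000657).

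Lrrn4, a leucine-rich repeat membrane protein gene named for its neuronal expression and also used as a mesothelial marker, was the member called in both mutants. It read 6.88, 7.20, 7.10 and 7.04 in Yy1 mutants, 6.86, 7.20, 7.08 and 7.11 in Dicer mutants, and 6.83, 6.23, 6.63 and 6.24 in controls. Both mutants lay above all controls, by a narrow margin over control 1, and the mutants overlapped. Against controls, at 6.48 ± 0.297, it rose by 0.57 in Yy1 mutants (SE 0.130, adjusted p = 0.0174) and by 0.58 in Dicer mutants (SE 0.130, adjusted p = 0.0132). The mutants share these controls. Between Yy1 and Dicer mutants the difference was -0.01 (95% interval -0.29 to 0.27, adjusted p = 0.98), and its sign turned in 4 of 22 alternatives.

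The Lrrn4 call in Yy1 mutants was lost without control 4 (adjusted p = 0.0504), Yy1 mutant 2 (0.0507) or Yy1 mutant 3 (0.0505). Lrrn1 and Lrrn3, of the same family, fell in both mutants. Lrrn1 fell by 0.97 in Yy1 mutants (adjusted p = 0.000284) and by 0.69 in Dicer mutants (adjusted p = 0.00318), and Lrrn3 fell by 0.74 (adjusted p = 8.38e-05) and 0.57 (adjusted p = 0.00057). Lrrn2 was called only between the mutants, higher in Yy1 mutants than in Dicer mutants with a difference of 0.37 (adjusted p = 0.0355). Its call was lost without any one of the 4 Yy1 mutants, Dicer mutant 2 or Dicer mutant 3 (adjusted p = 0.0635 to 0.111).

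Msln and Muc16 encode a pair of surface proteins that bind each other, mesothelin and a large membrane mucin, and their values lay on opposite sides of the controls in Dicer mutants. Muc16 read 5.33, 5.55, 5.40 and 5.65 in Yy1 mutants, 5.68, 6.13, 5.90 and 5.85 in Dicer mutants, and 5.202, 5.41, 5.15 and 5.33 in controls. All 4 Dicer mutants were above all Yy1 mutants and all controls, and the Yy1 mutants overlapped the controls. The gene averaged 5.89 ± 0.187 in Dicer mutants and 5.27 ± 0.117 in controls (SD, n = 4 each), a rise of 0.61 (SE 0.102, adjusted p = 0.00198) that was called in 22 of 22 alternatives. Its level lay below the array medians in controls, and how far it stood above background is not known. Yy1 mutants, at 5.48 ± 0.148, differed from controls by 0.21 (95% interval -0.01 to 0.43, adjusted p = 0.29).

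Muc16 was lower in Yy1 mutants than in Dicer mutants, with a difference of -0.41 (SE 0.102, adjusted p = 0.0368). That call was lost without Yy1 mutant 1 (adjusted p = 0.109), Yy1 mutant 2 (0.0527), Yy1 mutant 3 (0.107), Dicer mutant 2 (0.103), Dicer mutant 3 (0.0893) or Dicer mutant 4 (0.0738), so it rests on most of the arrays compared. Msln read 5.55, 5.63, 5.55 and 5.42 in Yy1 mutants, 5.52, 5.36, 5.46 and 5.51 in Dicer mutants, and 5.57, 5.80, 5.59 and 5.76 in controls. The 4 Dicer mutants lay below the 4 controls, the opposite order to Muc16, but no comparison passed the test. The Msln difference was -0.14 in Yy1 mutants (95% interval -0.30 to 0.02, adjusted p = 0.341) and -0.22 in Dicer mutants (-0.38 to -0.06, adjusted p = 0.0922).

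Wt1, the zinc finger transcription factor of mesothelium and epicardium, was highest on average in Yy1 mutants. It read 7.78, 7.65, 7.86 and 7.75 in Yy1 mutants, 7.71, 7.66, 7.44 and 7.72 in Dicer mutants, and 7.50, 7.36, 7.47 and 7.68 in controls. Of the Yy1 mutants, 3 lay above all controls and Yy1 mutant 2 lay just under control 4. The difference from controls was 0.26 in Yy1 mutants (95% interval 0.08 to 0.44, adjusted p = 0.0957, and 0.0444 without control 4) and 0.13 in Dicer mutants (-0.05 to 0.31, adjusted p = 0.417).

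Rspo1, a secreted protein that strengthens Wnt signalling through Lgr receptors, read 9.15, 9.13, 9.17 and 8.92 in Yy1 mutants, 9.20, 9.47, 9.05 and 9.17 in Dicer mutants, and 9.16, 8.76, 9.11 and 8.91 in controls. The 3 genotypes overlapped. It differed by 0.11 in Yy1 mutants (95% interval -0.12 to 0.34, adjusted p = 0.65) and by 0.24 in Dicer mutants (0.01 to 0.47, adjusted p = 0.205). With 1 array left out, these values ran from 0.04 to 0.17 and from 0.16 to 0.30.

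**Figure D1:**
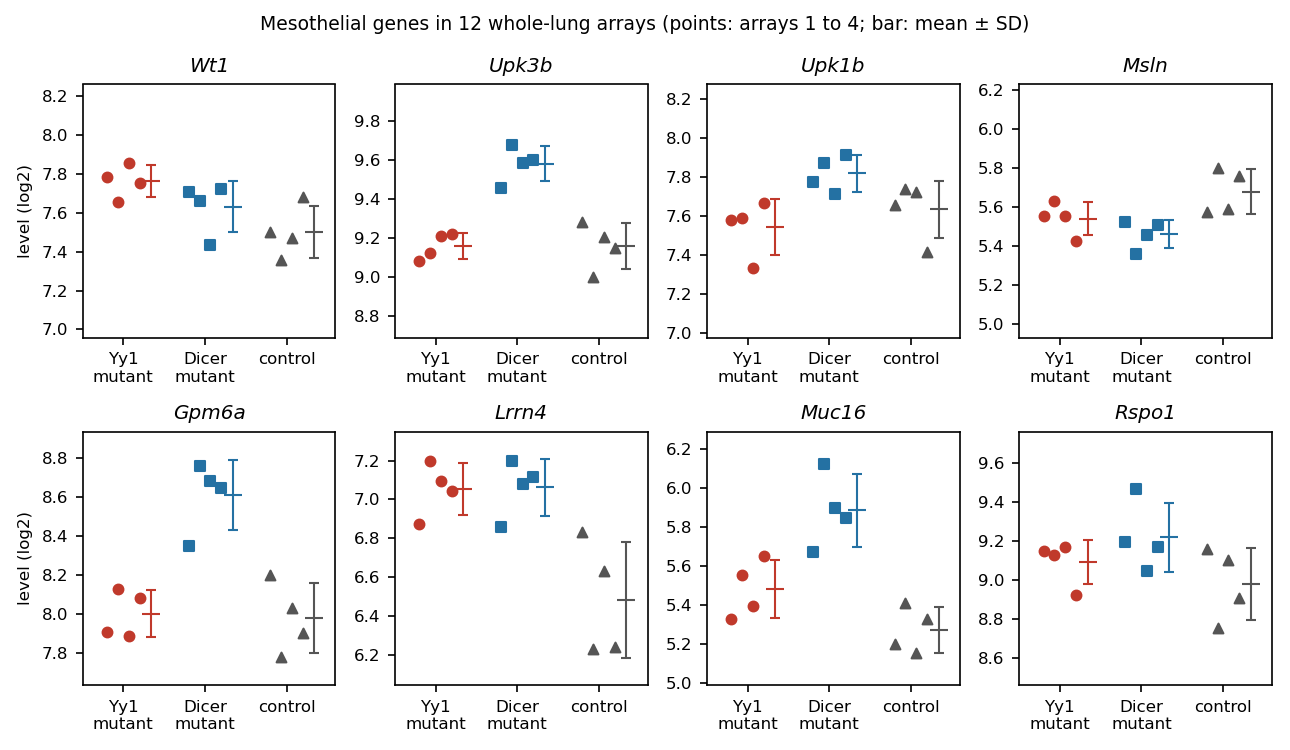
Level of each mesothelial gene (log2, vertical axis, panels of equal height in log2 units) on the 4 arrays of Yy1 mutants, Dicer mutants and controls, with the mean ± SD beside the points. Dicer mutants stand above both other genotypes for Upk3b, Gpm6a and Muc16, and both mutants stand above controls for Lrrn4.

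By level, Upk3b, Gpm6a and Muc16 thus ran Dicer mutant, then Yy1 mutant and control, with Yy1 mutants and controls not separated by the test. For Lrrn4 the mutants were not separated from each other, and both were above controls. For Wt1, Upk1b, Msln and Rspo1 no neighbours in the order of genotypes differed by the test.

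**Figure D2:**
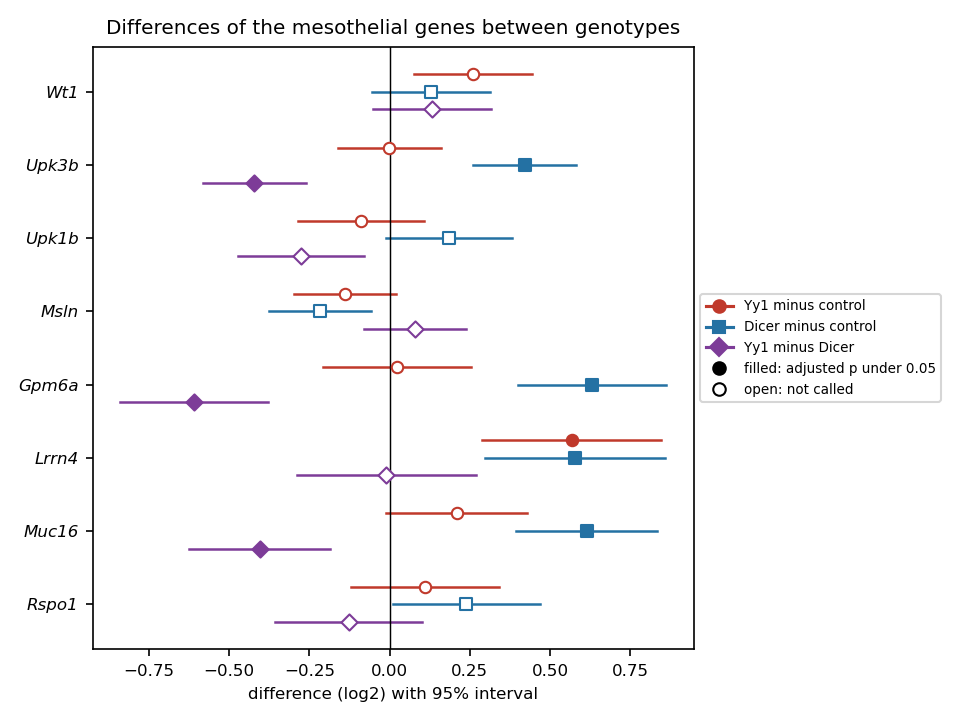
Difference of each mesothelial gene in 3 comparisons (log2, horizontal axis), with its 95% interval from limma; filled symbols passed adjusted p under 0.05. Of the 8 genes, 1 passed in Yy1 mutants against controls, 4 in Dicer mutants against controls and 3 between the mutants.

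Over the 8 genes, the median difference was 0.07 in Yy1 mutants and 0.33 in Dicer mutants, against 0.00161 and -0.03 over all genes. The genotypes did not overlap for 1 of 8 members in Yy1 mutants against controls, for 5 in Dicer mutants against controls and for 4 in Yy1 mutants against Dicer mutants. The share of all genes without overlap was 12.6%, 16.0% and 13.8% in those comparisons. Here too the counts are a description, since the members were chosen with earlier results of these data known. Counted per array, 2, 2, 3 and 3 of the 8 genes lay above all 4 controls in Yy1 mutants 1 to 4, and 7, 6, 4 and 7 in Dicer mutants 1 to 4. Of all genes, between 20.0% and 24.3% lay above all controls on these 8 arrays. Msln lay below all controls on every Dicer mutant array and on Yy1 mutants 1, 3 and 4.

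Some of the members also moved together among specimens of the same genotype. Across the 12 arrays, after each genotype's mean was subtracted, Gpm6a and Lrrn4 correlated at r = 0.86, Upk3b and Lrrn4 at 0.81 and Upk3b and Gpm6a at 0.81. Msln correlated below 0 with all 7 others, from -0.81 with Upk3b to -0.003 with Wt1. Of the 28 pairs, 5 were above 0.5 and 3 below -0.5, and the median was 0.03. These values are a description, since genes on one array share its RNA and its normalisation.

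**Figure D3:**
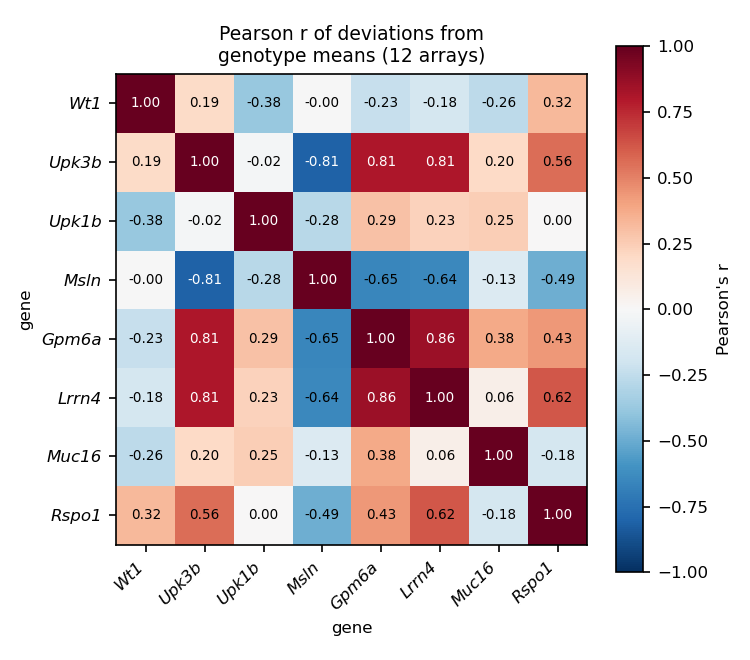
Pearson's r between pairs of mesothelial genes, computed from deviations from the genotype means over 12 arrays; each cell gives r for the genes on both axes, red above 0 and blue below. Upk3b, Gpm6a and Lrrn4 form a block of r from 0.81 to 0.86, and the row of Msln is at or below 0 against all others.

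Measured by the same deviations, the genes most like the mean of the 8 members were M6pr (r = 0.93), Cox19 (0.87), Laptm4b (0.87), Khk (0.87), Brca1 (0.87), Hcls1 (0.86), Ubxn4 (0.85), Cdk1 (0.85), Las1l (0.84) and Mir3068 (0.84). These are the highest over 12 arrays in a search of 22172 genes, once predicted genes and Riken clones were set aside. No gene of the wider mesothelial list is among them. The mean deviation itself was small, from -0.0911 in Dicer mutant 1 to 0.106 in Dicer mutant 2.

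The other mesothelial genes were a list of 12. In Yy1 mutants 1 rose and 11 were not called, and in Dicer mutants 2 rose, 1 fell and 9 were not called, with median differences of 0.04 and 0.09. Of all genes, 6.61% were called in either direction in Yy1 mutants, 8.75% in Dicer mutants and 4.96% between the mutants. None of the 12 was called between the mutants by limma, 1 of them at an unadjusted p under 0.05, and under 4 of the 22 alternatives 1 was called. Calb2, the calcium-binding protein calretinin that is a standard marker of mesothelial cells, rose in both mutants. It read 7.64, 7.07, 7.23 and 7.45 in Yy1 mutants, 6.89, 7.36, 7.01 and 7.22 in Dicer mutants, and 6.998, 6.41, 6.41 and 6.17 in controls.

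The Yy1 mutants lay above all controls for Calb2, whereas Dicer mutant 1 fell below control 1. The gene rose by 0.85 in Yy1 mutants (SE 0.168, adjusted p = 0.00747) and by 0.62 in Dicer mutants (SE 0.168, adjusted p = 0.0353). The call in Dicer mutants was lost without control 2, 3 or 4 or Dicer mutant 2, 3 or 4 (adjusted p = 0.0576 to 0.106). Calretinin also marks some neurons. In the neuron and glia list no gene was called, and 5 of 7 differences were above 0 in Yy1 mutants and 3 of 7 in Dicer mutants. The largest rise there, Fabp7, was 0.41 in Yy1 mutants (adjusted p = 0.0841) and 0.445 in Dicer mutants (adjusted p = 0.051). The part of neurons in the Calb2 values was not tested.

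Pkhd1l1, a large membrane protein gene of the fibrocystin family, had the pattern of Upk3b, Gpm6a and Muc16 against controls. Its level was 5.10, 5.30, 5.32 and 5.52 in Yy1 mutants, 5.36, 6.01, 5.91 and 6.0 in Dicer mutants, and 4.90, 5.28, 5.19 and 4.91 in controls. In controls Pkhd1l1 lay below the array medians, and how far it stood above background is not known. It rose by 0.75 in Dicer mutants (SE 0.144, adjusted p = 0.00533), with all 4 above the controls. The adjusted p was 0.0513 without 3 arrays with raised Y-linked genes and 0.127 without the 3 with the highest heart muscle level, and Yy1 mutants against Dicer mutants gave -0.51 (adjusted p = 0.0637). Efemp1, a fibulin of the extracellular matrix, fell by 0.33 in Dicer mutants (adjusted p = 0.0381). The Efemp1 call did not survive leaving out control 2 or 4, Yy1 mutant 3 or Dicer mutant 1 or 2 (adjusted p = 0.0544 to 0.0937), and with equal array medians (0.0513).

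Regulators and the secreted signal of the mesothelium were not called. Bnc1, a zinc finger protein, differed by 0.55 in Yy1 mutants (95% interval 0.18 to 0.93, adjusted p = 0.0802), with all 4 above the controls, and passed the test in 4 of 22 alternatives, among them the fit without Dicer mutant 3 (adjusted p = 0.0371). Fgf9, the growth factor sent from mesothelium and epithelium to the mesenchyme, differed by -0.24 in Yy1 mutants (adjusted p = 0.175) and by -0.06 in Dicer mutants (adjusted p = 0.779, and 0.03 as the difference without control 1). Aldh1a2, which makes retinoic acid in the mesothelium, differed by 0.05 (-0.02 without Yy1 mutant 4) and 0.09 (adjusted p = 0.873 and 0.678).

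The keratins of simple epithelia are made by mesothelial cells and by the airway epithelium, and every call among them against controls was a lower one. All 4 fell in Dicer mutants and 2 of 4 fell in Yy1 mutants, against 3.97% and 3.84% of all genes called lower there. Krt7 fell by 0.90 in Yy1 mutants (adjusted p = 4.55e-05) and by 0.43 in Dicer mutants (adjusted p = 0.00906), and Krt19 fell by 0.57 (adjusted p = 0.02) and 0.76 (adjusted p = 0.00298). Krt18 was higher in Yy1 mutants than in Dicer mutants by the test (difference 0.31, adjusted p = 0.0297, called in 13 of 22 alternatives). It fell by 0.35 in Dicer mutants (adjusted p = 0.0116) and Krt8 by 0.24 (adjusted p = 0.0353). The Krt8 call was lost without any one of 8 arrays and with equal array medians (adjusted p = 0.0577). Krt19 in Yy1 mutants lost its call without control 2 (adjusted p = 0.0569) or control 3 (0.0594).

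Most markers of the lung epithelium moved in the same direction as the keratins. Of 10, 10 fell in Yy1 mutants and 7 in Dicer mutants, with medians of -0.87 and -0.41. The share of all genes called lower was 3.84% and 3.97%, and 3.39% in Yy1 mutants against Dicer mutants. Epcam went the other way in Dicer mutants, with a difference of 0.11 that was not called (adjusted p = 0.336). It read 9.41 to 9.50 there and 9.25 to 9.40 in controls. Between Yy1 and Dicer mutants, 7 were lower, among them Epcam (difference -0.57, adjusted p = 0.000179), Foxa2 (-0.46), Esrp2 (-0.50), Sftpc (-1.24) and Nkx2-1 (-0.49, called in 13 of 22 alternatives), while Cldn6 was not called (-0.12). The list's mean level ran from 7.85 to 8.18 in Yy1 mutants, 8.24 to 8.55 in Dicer mutants and 8.81 to 9.05 in controls. Both mutants thus lay below controls on this list, with Yy1 mutants lowest. Lung mesenchyme markers rose in both mutants, 6 of 10 in each, with medians of 0.31 and 0.35. Among all genes, 2.77% were called higher in Yy1 mutants and 4.78% in Dicer mutants. The mesenchyme genes that rose in both included Lum by 1.29 and 1.03, Dcn by 0.69 and 0.88, and Fgf10 by 0.88 and 0.69. Pdgfra rose by 0.67 in Yy1 mutants. Col1a1 rose by 0.40 and Col1a2 by 0.40 in Dicer mutants, and Col1a1 by 0.26 in Yy1 mutants, a call that most single arrays changed (8 of 22 alternatives kept it). What part the epithelial and mesenchymal shifts had in the mesothelial values was not tested.

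**Figure D4:**
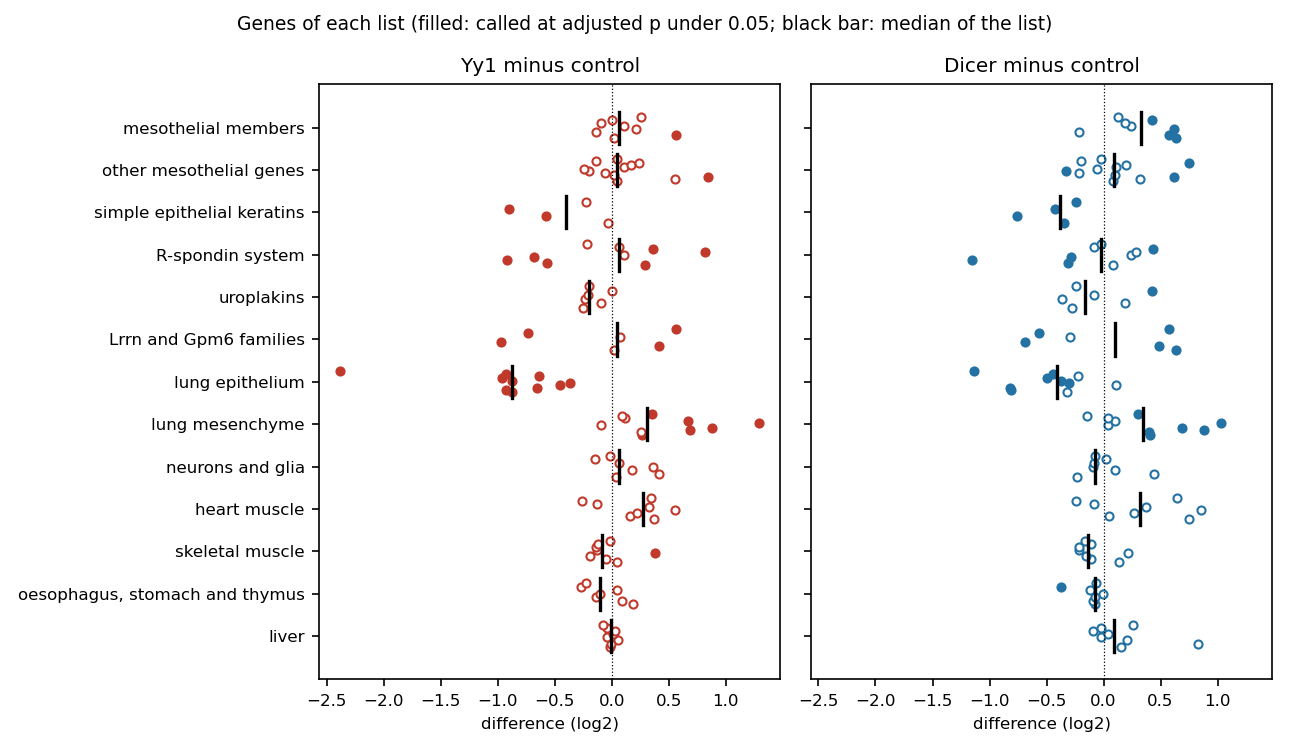
Difference of every gene in 13 lists (log2, horizontal axis) in Yy1 mutants against controls and in Dicer mutants against controls; filled points were called and the black bar is the median of the list. The 8 mesothelial members have medians of 0.07 and 0.33, the epithelial markers medians of -0.87 and -0.41.

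Around Rspo1, the R-spondin system of 9 genes held calls in both directions. There were 3 higher and 3 lower in Yy1 mutants and 1 higher and 3 lower in Dicer mutants. Among all genes, 2.77% were called higher and 3.84% lower in Yy1 mutants, and 4.78% and 3.97% in Dicer mutants. The ligand Rspo2, which is made by lung mesenchyme, rose by 0.82 in Yy1 mutants (adjusted p = 0.000191) and was higher there than in Dicer mutants (difference 0.53, adjusted p = 0.0053). Rspo3 rose by 0.36 in Yy1 mutants (adjusted p = 0.0212) and by 0.43 in Dicer mutants (adjusted p = 0.00632). Rspo1 itself, as given above, was not called.

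Of the receptors, Lgr6 fell by 0.92 in Yy1 mutants (adjusted p = 1.42e-05) and by 1.16 in Dicer mutants (adjusted p = 2.54e-06). Lgr5 fell by 0.57 (adjusted p = 0.00151) and 0.31 (adjusted p = 0.0447), and Lgr4 rose by 0.29 in Yy1 mutants (adjusted p = 0.0427). Rnf43, the ubiquitin ligase that removes Wnt receptors and that R-spondins oppose, fell by 0.68 (adjusted p = 0.000212) and 0.28 (adjusted p = 0.0487). Several of these calls lay close to the threshold. Rspo3 in Yy1 mutants lost its call without control 1 or 2 or Yy1 mutant 1 or 2 (adjusted p = 0.0528 to 0.063). Lgr4 in Yy1 mutants did so without any of 8 arrays and with equal array medians (0.0701). In Dicer mutants, Rnf43 and Lgr5 each did so without any of 10 arrays, and with the mean of all probe sets Lgr5 was not called in either mutant (adjusted p = 0.127 in Yy1 mutants and 0.296 in Dicer mutants).

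Of the 6 uroplakin genes, Upk3b was the one called in any comparison. The share of all genes called was 6.61% in Yy1 mutants, 8.75% in Dicer mutants and 4.96% between the mutants. The other uroplakins besides Upk1b are genes of the bladder lining, and Upk1a, Upk2, Upk3a and Upk3bl all read lower in both mutants without passing the test. Their differences were -0.20 to -0.25 in Yy1 mutants and -0.08 to -0.36 in Dicer mutants, the lowest adjusted p being 0.0589 for Upk2 in Dicer mutants.

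The heart carries an epicardium, which shares Wt1, Upk3b and other mesothelial genes, so heart muscle markers are given beside the members. None of 8 heart muscle genes was called in any comparison by limma, and 0 had an unadjusted p under 0.05 in any of them. Of all genes, 6.61%, 8.75% and 4.96% were called in Yy1 mutants, in Dicer mutants and between the mutants. The median differences of the heart list were 0.28 in Yy1 mutants and 0.32 in Dicer mutants, with 6 of 8 above 0 in each. Intervals were wide, such as -0.44 to 2.16 for Myl7 in Dicer mutants. The mean level of the list varied between specimens. It ran from 6.20 to 7.08 in Yy1 mutants, from 6.10 to 7.43 in Dicer mutants and from 6.33 to 6.56 in controls. Dicer mutant 3, Yy1 mutant 2 and Dicer mutant 4 were the 3 highest. Dicer mutant 1 had the lowest heart level of all 12 arrays, and Dicer mutant 3 the highest. In Dicer mutants 1 to 4 the heart level was 6.10, 6.63, 7.43 and 7.05. The mean over the 8 mesothelial genes was 7.57, 7.77, 7.61 and 7.69 on the same arrays. The part of heart tissue in the mesothelial values was not tested.

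Without the 3 arrays with the highest heart level, an analysis added after these values were seen, 2 Dicer mutants and 3 Yy1 mutants remained. Of the 4 genes raised in Dicer mutants, 1 then passed the test, Muc16. The differences were 0.41 for Upk3b (adjusted p = 0.0656), 0.58 for Gpm6a (0.0574) and 0.54 for Lrrn4 (0.145), close to those from all arrays. The number of genes called in Dicer mutants fell at the same time to 708, against 1940 with all arrays. In Yy1 mutants Lrrn4 differed by 0.52 (adjusted p = 0.0982) without those arrays.

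**Figure D5:**
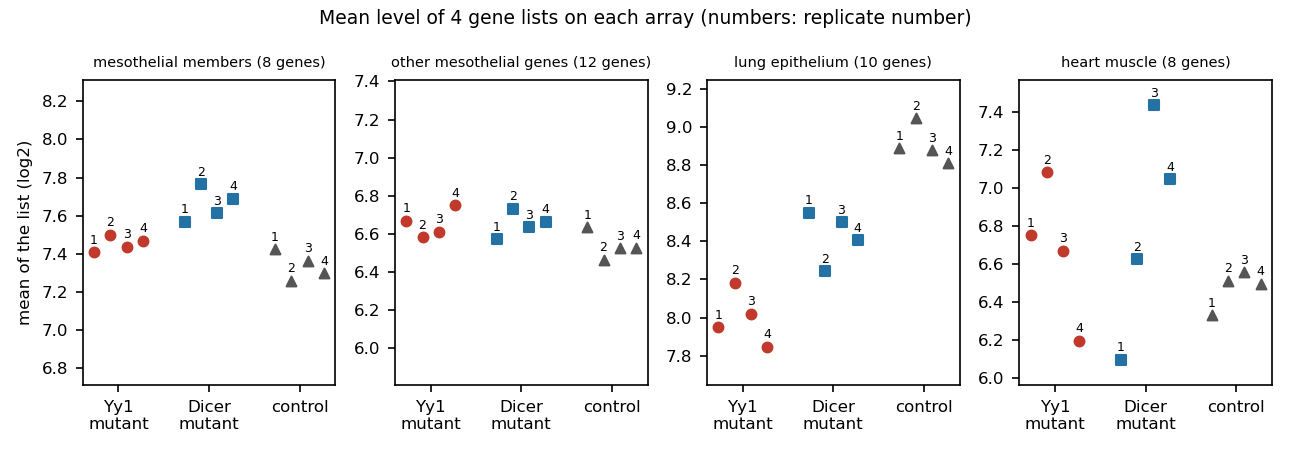
Mean level of 4 gene lists (log2, vertical axis) on each array of Yy1 mutants, Dicer mutants and controls, numbered by replicate. The 8 mesothelial members run from 7.57 to 7.77 in Dicer mutants, above the 7.26 to 7.43 of controls, while the heart muscle level is spread from 6.10 to 7.43 among the Dicer mutants.

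Other tissues that a lung specimen could hold gave 2 calls in all. The share of all genes called was 6.61% in Yy1 mutants, 8.75% in Dicer mutants and 4.96% between the mutants. Of 8 skeletal muscle genes, which would mark diaphragm, Myh8 rose by 0.38 in Yy1 mutants (adjusted p = 0.0218, and 0.0581 without control 2) and 7 were not called. Averaged over its 2 probe sets, Myh8 differed by 0.18 (adjusted p = 0.28). Of 7 genes of oesophagus, stomach and thymus, Krt15 fell by 0.38 in Dicer mutants (adjusted p = 0.0242). Krt15 was not called without control 1 or Dicer mutant 1 or 4 (adjusted p = 0.0613 to 0.0759), and after quantile normalisation (0.057). No gene of 8 liver genes was called by limma, while 0 in Yy1 mutants against controls, 1 in Dicer mutants against controls and 2 between the mutants had an unadjusted p under 0.05. Among all genes, 19.2%, 22.3% and 17.9% were under that p in these comparisons. The liver list's mean ran from 5.56 to 5.75 in Yy1 mutants, 5.54 to 6.16 in Dicer mutants and 5.48 to 5.85 in controls, the highest value being Dicer mutant 4. The part of these tissues in the mesothelial values was not tested.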

How the data were processed

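Whole-lung RNA from 12 mouse embryo specimens was hybridised to single-channel biotin-labelled Affymetrix arrays, per the labels. The authors deposited log2 values already comparable between arrays. How they were normalised, with which software and on which build is not given in the sources used here. Base 2 was read from the range of the values. Of 41345 probe sets, 23521 carried exactly 1 gene symbol, 1814 several and 16010 none listed. The probe set with the highest mean stood for a gene, leaving 22180 genes; 23328 probe sets matched a RefSeq gene by Entrez identifier.

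The 3 genotypes were fitted in one model with limma 3.58.1 in R 4.3.3 (moderated test, two-sided, Benjamini-Hochberg adjustment over all genes, 9 residual degrees of freedom), with no filter. The fit was tested on simulated data. Python 3.11.15, pandas 2.3.3, numpy 2.4.6 and matplotlib 3.10.9 made tables and plots. Pairs of arrays correlated at 0.978 to 0.991, and 0 were identical. Replicate numbers were not taken to pair the specimens. The number of arrays limits the precision.

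The members and lists were chosen with earlier results of these data known. Named are all 8 members with the targeted genes, up to 6 called genes of each other list with Fgf9, Bnc1 and Aldh1a2, and the 10 genes most correlated with the members' mean deviation. Predicted genes and Riken clones were kept out of these 10. Lists are counted over the genes measured. The model was refitted after quantile normalisation or with array medians made equal, without the dimmest 30% of genes, and with probe sets averaged per gene. It was also refitted with a trended robust prior, with weighted arrays, on the compared genotypes alone, with the replicate number as a blocking term and leaving out every array once. The last refits dropped 3 arrays whose Y-linked genes were raised, and, chosen after seeing the data, the 3 with the highest heart muscle level.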

Additional observations from a re-analysis of the deposited data

Results flagged for a closer look

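The effects of the 2 mutations, each against the same controls, differed by the direct comparison of Yy1 mutants with Dicer mutants (limma, adjusted p under 0.05) for 3 mesothelial genes. The differences, Yy1 minus Dicer, were -0.422 for Upk3b, -0.609 for Gpm6a and -0.405 for Muc16. In the related lists they were -0.471 for Krt7, 0.314 for Krt18, 0.532 for Rspo2, -0.397 for Rnf43 and 0.368 for Lrrn2. Among the named genes of the epithelial list they were -0.464 for Foxa2, -1.243 for Sftpc, -0.496 for Esrp2, -0.567 for Epcam and -0.487 for Nkx2-1. Pdgfra, of the mesenchymal list, gave 0.567. Further genes of the epithelial and mesenchymal lists, not among those named, also differed by the test.

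A single array stood far from the other 3 of its genotype for 2 genes. Rspo1 read 8.923 in Yy1 mutant 4 and 9.13 to 9.171 in the other Yy1 mutants. Pkhd1l1 read 5.356 in Dicer mutant 1 and 5.913 to 6.006 in the other Dicer mutants. Of 126 groups of 4 values examined, chance would mark about 1 in 20. The causes of these values were not tested.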

How the results depend on the processing

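Of 528 values of the 8 members under 22 alternatives, 488 kept their direction and side of the threshold, 22 lost a call, 2 gained one and 16 turned sign. Y-linked genes were raised on Yy1 mutants 2 and 3 and Dicer mutant 4, and none of these arrays is a control. Sex, which the labels do not state, may thus be unevenly spread between mutants and controls. When these arrays were dropped, calls were lost for Upk3b (-0.422), Gpm6a (-0.603) and Muc16 (-0.411) between Yy1 and Dicer mutants. Calls were also lost for Lrrn4 in Yy1 (0.474) and Dicer mutants (0.560). The number of called genes was then 606 in Yy1 mutants, 976 in Dicer mutants and 435 between them. Without the 3 arrays with the highest heart muscle level it was 970, 708 and 393. Calls were then lost for Upk3b (0.408), Gpm6a (0.577) and Lrrn4 (0.542) in Dicer mutants, for Lrrn4 in Yy1 mutants (0.519), and between the mutants for Upk3b (-0.397), Gpm6a (-0.597) and Muc16 (-0.443). Both removals leave fewer samples. With only the genotypes compared, Muc16 between the mutants (-0.405) was not called. Array weights gave 1806 calls between the mutants, against 1101, and called Upk1b there (-0.321).

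Values near 0 turned sign. For Upk3b in Yy1 mutants they were 0.0270 after quantile normalisation and 0.0111 without the heart arrays. For Gpm6a in Yy1 mutants they were -0.0285 with array weights and -0.0193 without the heart arrays, and for Lrrn4 between the mutants 0.0112 after quantile normalisation. With 1 array left out, the ranges were -0.0537 to 0.0407 for Upk3b and -0.0433 to 0.0971 for Gpm6a in Yy1 mutants, -0.0789 to 0.0483 for Lrrn4 between the mutants, 0.212 to 0.320 for Wt1 and 0.484 to 0.683 for Lrrn4 in Yy1 mutants, and -0.476 to -0.325 for Muc16 between the mutants. Called genes then ranged from 1020 to 1455 in Yy1 mutants, 1275 to 1991 in Dicer mutants and 726 to 1180 between them, the 1275 and 726 without Dicer mutant 4. Fgf9 in Dicer mutants was 0.0587 without the heart arrays and -0.118 to 0.0287 with 1 array left out, turning sign without control 1. Aldh1a2 in Yy1 mutants was -0.0219 to 0.121 with 1 array left out, below 0 without Yy1 mutant 4. Between the mutants Aldh1a2 was 0.0759 when the arrays with Y-linked genes were dropped, 0.0467 without the heart arrays and -0.107 to 0.00134 with 1 array left out, above 0 without Yy1 mutant 2. The causes were not tested.

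The replicate block gave 1301, 1848 and 997 called genes, against 1465, 1940 and 1101, and changed no call of a member. Under it Calb2, Efemp1, Rnf43 and Lgr5 in Dicer mutants, Lgr4 and Col1a1 in Yy1 mutants and Lrrn2 between the mutants were not called (adjusted p = 0.0525 to 0.0732). Of 12 same-numbered pairs, 3 had deviations that correlated above 0.1 (range -0.161 to 0.190), and 9 did not. Of the 12 arrays, 5 had a same-numbered array as their single best match and 0 had one as the best match in both other genotypes. The numbers were therefore not taken to pair the specimens. With 4 arrays per genotype, differences such as those of Wt1 and Msln, whose intervals exclude 0 before adjustment, were not resolved.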
